A study of Mus musculus with 4 samples.

Results

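The hippocampal fields differ in the genes their neurons use, and 7 genes known as marks of one field were followed spot by spot. Nectin3, Plagl1, Iyd and Elavl2 stand for CA3, Wfs1 and Ndst4 for CA1, and Prox1 for the dentate gyrus. They were chosen by name with their earlier values in view, and every spot annotated to them was taken, which gave 11 of the 16281 spots of the array. Nectin3 had 4 spots, Plagl1 had 2 and the other genes had 1 each. None of their values was an exact 0, so all 44 values over the 4 arrays were measured ratios.

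The RNA came from the CA1 field of young male mice of the inbred strain C57BL/6J. Mice of the MK C+S group received MK-801, a blocker of the NMDA type of glutamate receptor, 1 h before contextual fear conditioning, in which 2 min in a chamber new to them, ended by a shock of 0.5 mA lasting 1 s, were repeated to a total of 3 shocks. Mice of the MK group received MK-801 alone, so both groups carried the drug. The labelled dose is 300 micrograms per g body weight, printed as labelled. The times from the last shock to RNA extraction were 1, 2, 4 and 6 h, with 1 array for each. All 4 arrays carried MK C+S RNA in the red channel and MK RNA in the green channel. The number of animals behind each channel is not given.

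The deposited values are log ratios of the 2 channels. No source states the direction of the ratios. Red over green, the common order, would make a value above 0 stand for more RNA in MK C+S, while the sample titles name MK before MK C+S. Values are given as MK C+S over MK on the first reading, and if the ratios run the other way, every sign, order and difference below is turned. Base 10 was assumed for the logs, and every ratio or fold below rests on it. An array had 12586 to 15078 measured spots. With 1 array per time and no dye swap, a single value carries no error, and a dye or spot effect and an effect of conditioning cannot be told apart. A log ratio holds no level, so the labelled CA1 origin could not be checked against the marker genes. In tissue RNA, fewer cells of a type and less RNA per cell cannot be told apart either.

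In the hippocampal circuit, granule cells of the dentate gyrus send mossy fibres to CA3 pyramidal neurons, and these project to the pyramidal neurons of CA1. Each field is set apart by transcription factors, adhesion molecules and enzymes that its neurons express more strongly than their neighbours do. A dissected CA1 sample holds CA1 pyramidal cells together with interneurons, glia and vessel cells, and it can carry tissue from the adjoining fields. The marker genes are relative marks, and several of the CA3 genes are also expressed elsewhere in the brain.

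Over the 4 arrays, 31 of the 44 values lay below 0. Negative values of 2-fold or more numbered 11, or 25% of the members' values, against 6.82% of all values on these arrays. Positive values of 2-fold or more numbered 3, or 6.82%, against 5.95%. All 11 large negative values belonged to CA3 genes, and 6 of them came from 2 spots, Nectin3 spot 17709 and Plagl1 spot 6707. As the genes were chosen with these values known, the counts describe them and test nothing.

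**Figure D1:**
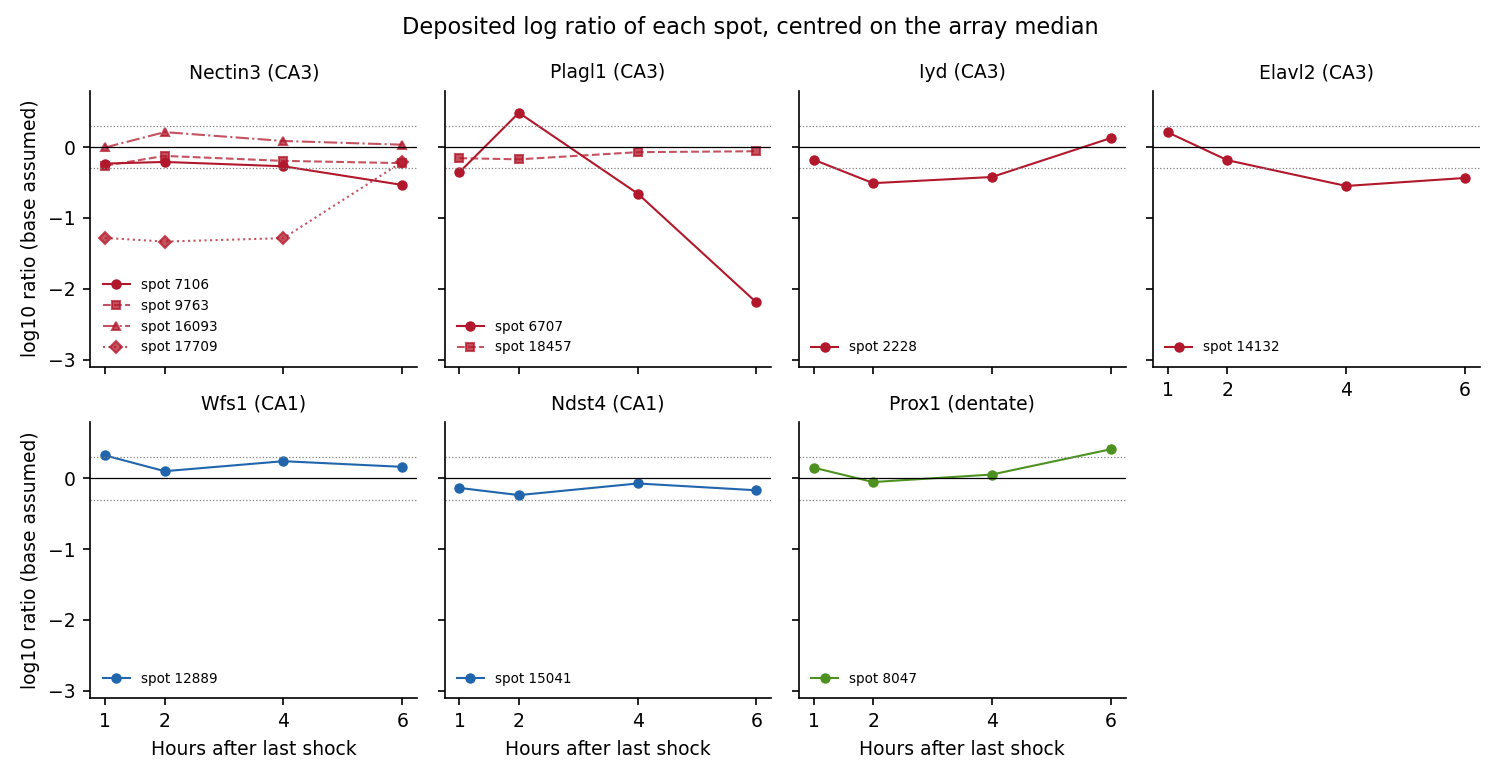
Log10 ratio of MK C+S over MK (direction and base assumed) of every spot of the 7 genes, centred on the array median, against hours after the last shock. Dotted lines mark 2-fold. Nectin3 spot 17709 (-1.28 at 1 h) and Plagl1 spot 6707 (-2.19 at 6 h) lie far below the other spots of their genes.

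The promoters of the members were searched for the DNA letters of activity-regulated factors. The search covered both strands of the 250 bases before each start in the RefSeq table (GRCm38.p6). The letters were TGACGTCA (the CRE, bound by CREB), TGACG (the CRE half-site, which the CRE contains), TGANTCA (AP-1) and GCGTGGGCG (Egr). Starts were listed for 6 of the 7 genes, and Ndst4 was not matched. Elavl2 had 6 starts, Prox1 had 2, and Nectin3, Plagl1, Iyd and Wfs1 had 1 each. Of all 32851 starts, 1.55% held the CRE, 17.8% the half-site, 6.75% the AP-1 letters and 0.536% the Egr letters. Among the member genes only Iyd held any of them, a half-site on the minus strand, whose letters on the gene's strand are in capitals below. Nectin3, the lowest gene value at 1 h, and Wfs1, the highest, are shown beside it, and their windows are rich in G and C (73.2% and 69.6%, against 48.4% for Iyd and a median of 52.4% over all starts). A match describes the letters of this window and says nothing on binding. The windows are chr16:46496968-46497217 on the minus strand for Nectin3, chr10:3540024-3540273 on the plus strand for Iyd and chr5:36988983-36989232 on the minus strand for Wfs1.
Nectin3: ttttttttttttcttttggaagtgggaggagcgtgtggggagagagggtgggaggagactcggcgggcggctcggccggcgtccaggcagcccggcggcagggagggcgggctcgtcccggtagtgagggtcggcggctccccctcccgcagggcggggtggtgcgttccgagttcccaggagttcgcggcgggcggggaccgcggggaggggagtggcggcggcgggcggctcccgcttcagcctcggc
Iyd: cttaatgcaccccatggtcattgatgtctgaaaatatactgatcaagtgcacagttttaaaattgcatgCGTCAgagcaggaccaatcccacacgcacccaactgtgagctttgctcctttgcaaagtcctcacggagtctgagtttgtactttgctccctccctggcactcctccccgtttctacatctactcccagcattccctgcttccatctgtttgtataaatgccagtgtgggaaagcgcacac
Wfs1: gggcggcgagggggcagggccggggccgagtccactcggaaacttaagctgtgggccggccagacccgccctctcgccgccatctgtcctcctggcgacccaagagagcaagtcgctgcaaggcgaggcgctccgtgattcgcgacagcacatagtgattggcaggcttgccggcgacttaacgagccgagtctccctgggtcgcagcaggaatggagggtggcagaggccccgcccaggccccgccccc

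Nectin3 encodes an adhesion protein of the nectin family, known from the contacts between mossy fibres and CA3 dendrites. Its spot 7106 gave -0.23, -0.21, -0.27 and -0.53 at 1, 2, 4 and 6 h. Spot 9763 gave -0.26, -0.12, -0.19 and -0.23. Both were negative on every array, and among them only the 6 h value of spot 7106 passed 2-fold. Spot 16093 gave -0.0040, 0.21, 0.087 and 0.034, and was thus close to 0 or above it. Spot 17709 gave -1.28, -1.33, -1.28 and -0.21. It was the extreme spot of the gene at 1, 2 and 4 h, with 0.254%, 0.115% and 0.0796% of measured spots below it, but not at 6 h, where 19.1% lay below.

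The 4 Nectin3 spots are annotated to 4 different sequence records of the gene, and the gene is known to give several protein isoforms. Which transcript each spot detects is not stated. Among genes with 4 measured spots, the range between spots was widest for Nectin3 at 1, 2 and 4 h (1.28, 1.55 and 1.37 log10 units, over 12, 20 and 22 such genes). The median range of those genes was 0.36, 0.31 and 0.28. At 6 h its range of 0.57 was exceeded by 9 of the other genes with 4 spots. The 6 spots next to spot 17709 by number lay between -0.31 and -0.0019 at 2 h and between -0.099 and 0.14 at 4 h, and at 1 h only 1 of the 6 had a ratio.

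As a mean of its spots, Nectin3 was at -0.44, -0.36, -0.42 and -0.23 at 1, 2, 4 and 6 h, with a mean of -0.36 (SD 0.094, n = 4 arrays). Without spot 17709 the values were -0.17, -0.040, -0.13 and -0.24, still negative on all 4 arrays, and the mean was -0.14. Without spot 16093 the mean was -0.51. The size of the Nectin3 value thus rested on which spots were averaged. Its sign held with any 1 spot left out, but spot 16093 by itself was positive at 2, 4 and 6 h.

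Plagl1, an imprinted gene for a zinc finger transcription factor also called Zac1, had 2 spots that parted. Spot 6707 gave -0.35, 0.49, -0.66 and -2.19 at 1, 2, 4 and 6 h. Spot 18457 gave -0.16, -0.17, -0.071 and -0.058. The first spot passed 2-fold on every array, negative at 1, 4 and 6 h and positive at 2 h, where 99.7% of measured spots lay below it. The other spot was negative on every array and never near 2-fold. At 6 h the 2 spots lay 2.14 log10 units apart, a distance exceeded by 1 of the other genes with 2 measured spots, out of 2191 such genes in all. At 1 h their distance of 0.20 was exceeded by 541 of 1485.

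The mean of both Plagl1 spots was -0.25, 0.16, -0.36 and -1.13 at the 4 times. Its mean over the arrays was -0.40 (SD 0.54, n = 4 arrays), and the SD was larger than the mean. With spot 18457 by itself, the mean was -0.11 (SD 0.058).

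Iyd encodes the iodotyrosine deiodinase that recovers iodide in the thyroid. Its spot gave -0.18, -0.51, -0.42 and 0.13 at 1, 2, 4 and 6 h. It passed 2-fold at 2 and 4 h and lay above 0 at 6 h. Elavl2, a neuronal RNA-binding protein gene also called HuB, had values of 0.21, -0.18, -0.55 and -0.44. It was the only CA3 gene above 0 at 1 h, and it passed 2-fold at 4 and 6 h. The 2 genes overlapped in range, with Iyd lowest at 2 h and Elavl2 lowest at 4 h. Each time has 1 array, so a difference between their time courses was not tested.

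The CA1 genes stood on opposite sides of 0. Wfs1, which encodes wolframin, a membrane protein of the endoplasmic reticulum, gave 0.32, 0.10, 0.24 and 0.16. It was the member spot that lay above 0 on all 4 arrays, and at 1 h it passed 2-fold with a ratio of 2.10. Of the measured spots, 95.4%, 75.2%, 94.4% and 76.8% lay below it at 1, 2, 4 and 6 h. Spots with neighbouring numbers were positive too at 1, 2 and 4 h: of the 6 nearest, the 5 measured lay between 0.048 and 0.29 at 1 h, between 0.035 and 0.27 at 2 h and between 0.096 and 0.35 at 4 h. At 6 h they lay on both sides of 0, between -0.049 and 0.32. With a running median over 51 spots removed, Wfs1 was at 0.27, -0.037, 0.21 and 0.20, and so not positive at 2 h. The part of the neighbourhood in the Wfs1 values was not tested.

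Ndst4, an enzyme gene of heparan sulfate sulfation, gave -0.14, -0.24, -0.073 and -0.17. It was negative on all 4 arrays, within 2-fold throughout, and had the smallest SD over the arrays among the gene values (0.068). The median of its 50 neighbouring spots was 0.079, -0.12, -0.095 and 0.063 at the 4 times. With the running median removed Ndst4 was at -0.21, -0.11, 0.016 and -0.22, thus further below 0 at 1 and 6 h and not negative at 4 h. Prox1, the homeobox transcription factor gene of dentate granule cells, gave 0.15, -0.053, 0.054 and 0.41. It passed 2-fold at 6 h with a ratio of 2.57, where 91.0% of measured spots lay below it. At 2 and 4 h it was close to 0. The median of its 50 neighbouring spots was 0.043, 0.080, 0.067 and 0.062 at the 4 times. With the running median removed Prox1 was at 0.10, -0.13, -0.013 and 0.35, thus not positive at 4 h, with a mean of 0.076.

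By array, 2-fold negative values were found in 2 of the 11 spots at 1 h (background of all spots 4.14%), 2 at 2 h (5.03%), 4 at 4 h (5.03%) and 3 at 6 h (12.8%). The spots at 4 h were those of Iyd, Elavl2, Nectin3 17709 and Plagl1 6707. Positive values of 2-fold were found in 1 spot at 1 h (Wfs1, background 5.32%), 1 at 2 h (Plagl1 6707, 2.91%), 0 at 4 h (2.94%) and 1 at 6 h (Prox1, 12.7%). The 6 h array was wider than the others, so a value of 2-fold was more common there. Values below 0 numbered 8, 8, 8 and 7 of 11 at the 4 times, where centring sets the background at 50%. Spots negative on all 4 arrays numbered 5 (background 11.5%), namely 3 of Nectin3, 1 of Plagl1 and that of Ndst4, and 1 was positive on all 4 (Wfs1, background 10.1%).

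**Figure D2:**
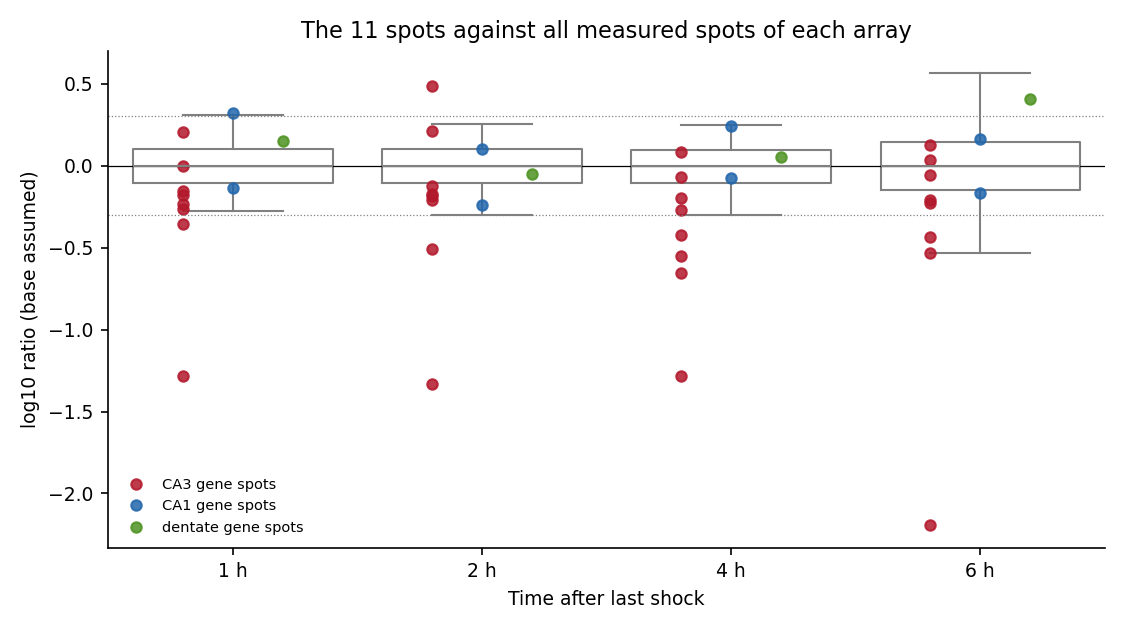
The 11 member spots (coloured by field) over boxes for all measured spots of each array, with whiskers at the 5th and 95th percentiles, in log10 units (base assumed). Dotted lines mark 2-fold, and the lowest CA3 points reach -1.33 at 2 h and -2.19 at 6 h, while CA1 and dentate points stay between -0.24 and 0.41.

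Ordered by the mean over the 4 arrays, the gene values ran from Wfs1 (0.21, SD 0.097) and Prox1 (0.14, SD 0.20) through Ndst4 (-0.15, SD 0.068), Elavl2 (-0.24, SD 0.34) and Iyd (-0.25, SD 0.29) to Nectin3 (-0.36, SD 0.094) and Plagl1 (-0.40, SD 0.54). Each SD is over 4 arrays and holds differences between times as well as error. Single arrays moved several of these means by over 1.5 times. Leaving out the 6 h array gave -0.15 for Plagl1, which was then no longer last, 0.051 for Prox1 and -0.37 for Iyd. The Iyd mean was -0.16 if the 2 h array was dropped, and that of Elavl2 was -0.39 if the 1 h array was dropped and -0.14 if the 4 h array was. Of the 6 pairs of neighbours in this order, only Prox1 and Ndst4 lay further apart than the SD of their difference, at 0.29 (SD 0.20), with Prox1 above Ndst4 on 4 of 4 arrays. Elavl2 and Iyd differed by 0.0052 (SD 0.44), and Nectin3 and Plagl1 by 0.032 (SD 0.61). Wfs1 was above Ndst4, Elavl2, Iyd and Nectin3 on all 4 arrays, and above Prox1 and Plagl1 on 3. The CA3 genes came last in the order of means, yet on single arrays they did not always do so: Plagl1 was the highest of the 7 genes at 2 h, Elavl2 the next after Wfs1 at 1 h, and Iyd the next after Prox1 and Wfs1 at 6 h.

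The mean of the 4 CA3 genes was -0.17, -0.22, -0.44 and -0.42 at 1, 2, 4 and 6 h. That of the CA1 pair was 0.094, -0.068, 0.085 and -0.0033. The CA3 mean was thus lower than the CA1 mean on each array, and the difference, CA3 minus CA1, averaged -0.34 (SD 0.16, n = 4 arrays). It was smallest at 2 h, at -0.16, and largest at 4 h, at -0.52. The genes were chosen with these values known, so this difference is a description. The CA3 mean at 6 h includes Plagl1 spot 6707 at -2.19, while the other Plagl1 spot was at -0.058. Spot 6707 also enters at 2 h with 0.49 and at 4 h with -0.66, where the other spot was at -0.17 and -0.071. At 1, 2 and 4 h the CA3 mean includes Nectin3 spot 17709 at -1.28, -1.33 and -1.28. Without that spot Nectin3 was at -0.17, -0.040 and -0.13 at these times. How far the difference rests on these 2 spots was not tested. Among further marker genes of these fields, described below, the CA3 median was lower than the CA1 median at 1 and 2 h only. At 4 h it was -0.041 against -0.096 for CA1, and at 6 h 0.0047 against -0.16. All 4 CA3 genes were negative at 4 h, and 3 of 4 at each other time. The gene that differed was Elavl2 at 1 h, Plagl1 at 2 h and Iyd at 6 h.

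**Figure D3:**
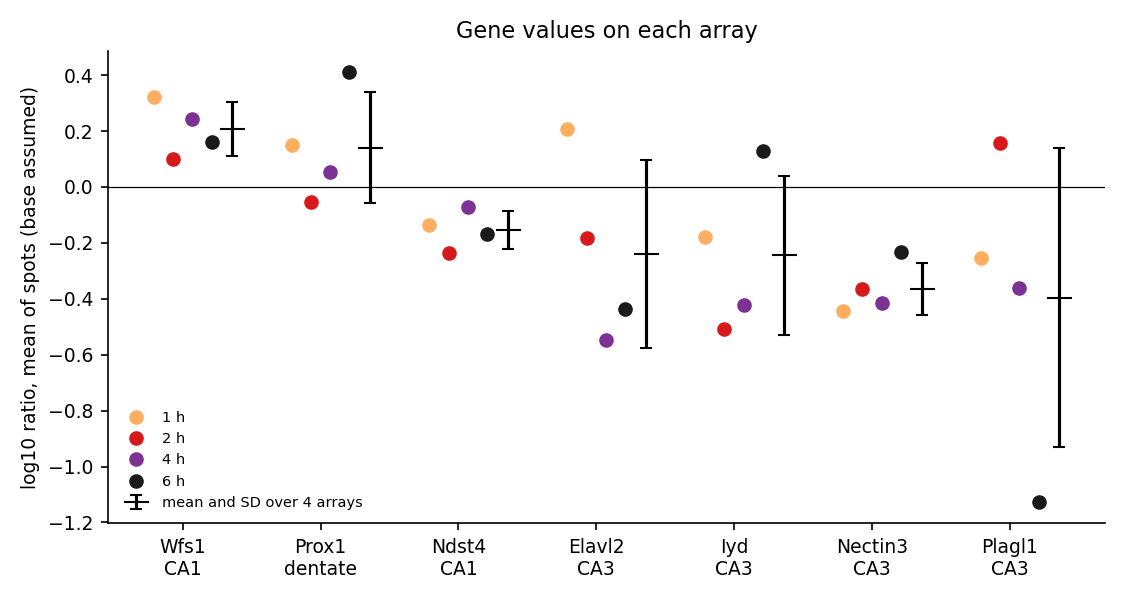
Gene values (mean of measured spots, log10 units, base assumed) on each of the 4 arrays, coloured by time, with the mean and SD over arrays in black. Wfs1 is positive and Nectin3 and Ndst4 negative on all 4 arrays, while Plagl1 spreads between 0.16 and -1.13.

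Whether the ratios moved with time was tested with a slope on hours in limma, fitted to 11488 spots with a ratio on all 4 arrays, with the spread about a line as the error. The choice of the genes followed their mean over times, which the slope does not use, although their time courses were known as well. No member passed at a Benjamini-Hochberg adjusted p under 0.05, and 0% of all spots did in either direction. At an unadjusted p under 0.05, limma gave 592 positive slopes (5.15%) and 1276 negative ones (11.1%) among all spots. Among the members it gave 1 positive slope, that of Nectin3 spot 17709, and 2 negative ones, those of Plagl1 spot 6707 and Elavl2.

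The slope of Plagl1 spot 6707 was -0.43 log10 units per h (SE 0.10, limma's adjusted p 0.128). That of Elavl2 was -0.13 (SE 0.042, adjusted p 0.213), and that of Nectin3 spot 17709 was 0.20 (SE 0.059, adjusted p 0.165). These were the steepest of the 11, and the other 8 lay between -0.060 and 0.073. Wfs1 (-0.015, SE 0.032) and Ndst4 (0.0056, SE 0.030) had slopes smaller than their errors. All 3 steep slopes depended on single arrays in fits that left 1 out. Without the 6 h array the slope of Nectin3 spot 17709 was 0.0026 (limma's adjusted p 0.993) and that of Plagl1 spot 6707 -0.17 (adjusted p 0.716). That of Plagl1 spot 6707 was -0.67 without the 1 h array (adjusted p 0.0772). Elavl2 had -0.063 without the 1 h array (adjusted p 0.651) and -0.24 without the 6 h array (adjusted p 0.155). Without the 4 h array, Plagl1 spot 6707 and Nectin3 spot 17709 passed, at adjusted p of 0.0116 and 0.00744, in a fit that called 766 spots in all.

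**Figure D4:**
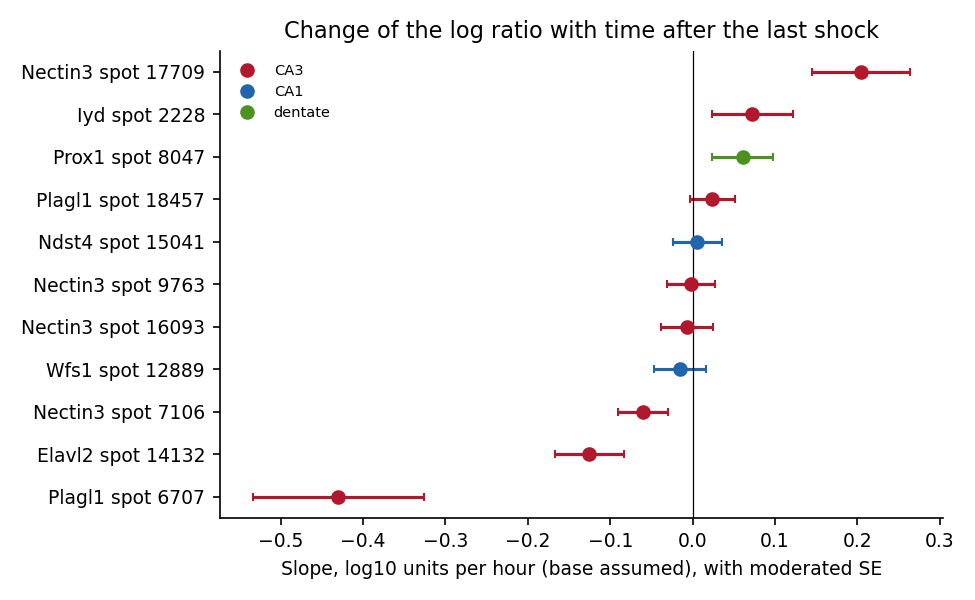
Slope of the log10 ratio per hour (base assumed) for the 11 spots, with limma's moderated standard error as bars, ordered from the most positive at the top. Plagl1 spot 6707 (-0.43) and Nectin3 spot 17709 (0.20) are the extremes, and the spots of the CA1 genes lie at 0 within their errors.

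Other marker genes of the fields came from lists written with earlier results of these data known. Of 10 further CA3 genes, 7 were measured, and 5 had a negative mean over the arrays, against 50.4% of 10622 named genes. Their median was -0.056, -0.13, -0.041 and 0.0047 at 1, 2, 4 and 6 h, while that of all named genes lay between -0.0062 and 0.0013. Bok, a gene of the BCL-2 family, gave -0.10, -0.31, -0.36 and 0.021, Dkk3, a secreted protein gene of the Dickkopf family, 0.011, -0.17, -0.041 and -0.31, and the proteoglycan gene Spock1 -0.77, -0.00095 and 0.083 with no ratio at 6 h. The median of these 7 genes was nearer to 0 than the mean of the 4 CA3 members on each array. A median and a mean are unlike measures, and a median gives little weight to a value such as that of Spock1 at 1 h. The members were also chosen with their values known.

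Of 9 further CA1 genes, 4 were measured, with a median of -0.038, 0.092, -0.096 and -0.16. The proteoglycan gene Dcn gave -0.14, 0.092, -0.15 and -0.18, and Ccn3 gave -0.11, 0.12, -0.096 and -0.16. Both had the opposite sign to Wfs1 at 1, 4 and 6 h. At 1 h 2 of the 4 were positive like Wfs1, among them Pou3f1, a POU transcription factor gene, at 0.11 with no ratio later. Of 14 further dentate genes, 6 were measured, with a median of -0.081, -0.057, -0.039 and 0.022. The tryptophan-degrading enzyme gene Tdo2 was at 0.23, 0.18, -0.063 and 0.014, and the guidance gene Sema5a at -0.19, -0.11, -0.029 and -0.074. No gene of these 3 lists passed the slope test on gene values after adjustment in limma. The test covered 10 CA3, 5 CA1 and 7 dentate genes, members included. At an unadjusted p under 0.05 limma named Elavl2 and Plagl1 alone, both negative. Among all 8553 genes tested it gave 397 positive and 853 negative slopes at that p. The lists were not tested against this background, and Elavl2 and Plagl1 were chosen with their time courses known.

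**Figure D5:**
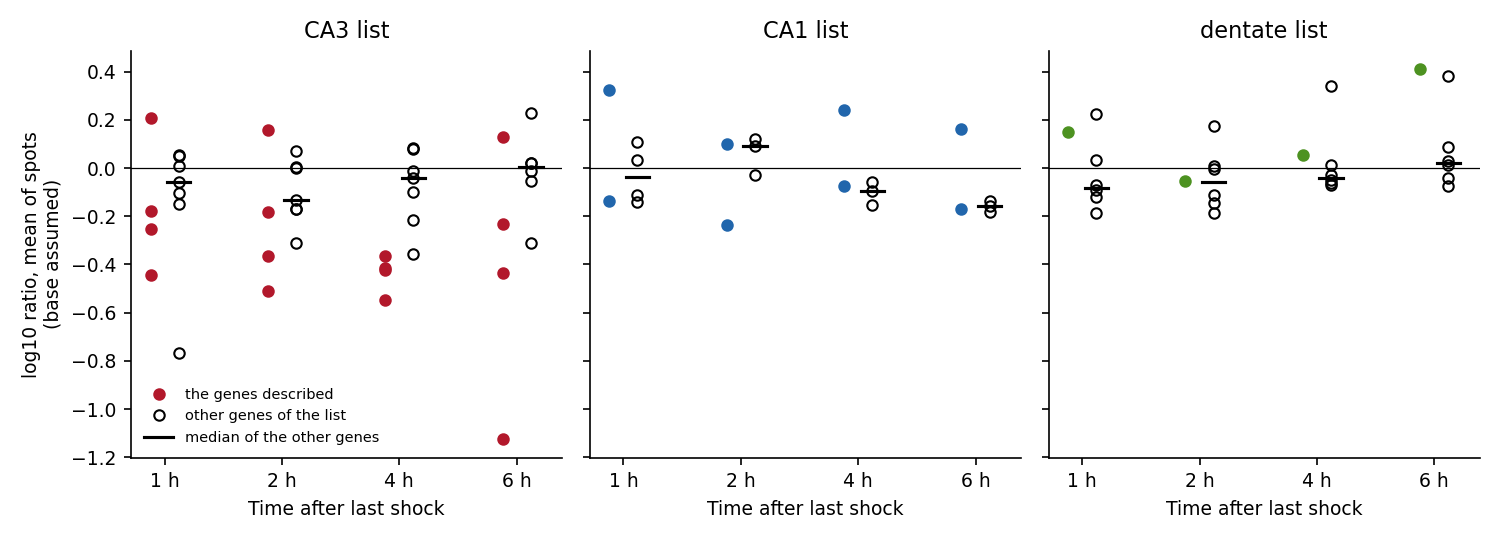
Gene values (log10 units, base assumed) of the CA3, CA1 and dentate lists on each array, with the genes described in colour, the other genes as open circles and the median of the others as a bar. At 4 h the 4 coloured CA3 points lie between -0.55 and -0.36, and the median of the other CA3 genes at -0.041.

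Markers shared by pyramidal neurons or typical of neighbouring cells were read beside these values. Neurod6, a transcription factor gene of pyramidal neurons, gave -0.011, -0.24, -0.37 and -0.26, negative on all 4 arrays. Of the 6 measured general pyramidal genes, only Neurod6 was negative at 4 h, where the calcium sensor gene Hpca was at 0.40, and the list medians were -0.071, -0.14, 0.099 and -0.084. Nrgn, a calmodulin-binding protein gene, gave -0.49, -0.19, 0.084 and 0.0061. The 11 interneuron genes had medians between -0.084 and 0.026, and the 3 measured CA2 genes between -0.14 and 0.0019. The 7 measured endothelial genes were negative in 4, 6, 7 and 6 cases at the 4 times, with medians of -0.085, -0.16, -0.12 and -0.089. Of all named genes, 49.6%, 50.3%, 50.2% and 51.4% were negative at these times. The choroid plexus list had a median of 0.49 at 1 h, and medians between -0.025 and -0.0011 later. At 1 h, 6 of its 7 measured genes were positive by 2-fold or more, against 469 of 9162 named genes. The genes of this list with the largest absolute mean did not share a sign. Ttr had no ratio at 1 h and gave -0.66, -1.27 and -0.12 at 2, 4 and 6 h. Kl gave -0.24, -0.34, -0.22 and -0.26 at the 4 times, and Aqp1 gave 0.40, 0.013, 0.20 and 0.28. Medians of the astrocyte list ran from -0.039 at 1 h to 0.14 at 6 h, those of the microglia list from -0.069 at 2 h to 0.13 at 4 h, and those of the oligodendrocyte list from -0.040 at 1 h to 0.066 at 2 h. Their part in the values of the field genes was not tested.

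Relatives and partners of the members were measured for 20 of 26 listed genes. Of these, 14 (70%) had a negative mean, against 50.4% of all named genes, in a list written with earlier results known. The genes named next are those with the largest absolute mean. Plagl2, a zinc finger gene related to Plagl1, gave 0.048, -0.16, -0.43 and -0.62. Hs6st1, a heparan sulfate sulfotransferase gene, gave -0.084, -0.38 and -0.41 at 2, 4 and 6 h. Dio2, the deiodinase gene that activates thyroid hormone, gave 0.27, 0.64, 0.41 and 0.23, positive on all 4 arrays and so on the other side of 0 from Iyd at 1, 2 and 4 h.

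The gene whose 4 values lay nearest to those of a member, by Euclidean distance over the 4 arrays among 8552 genes, was Bok for Iyd (distance 0.25), Tnnt1 for Nectin3 (0.21), Agfg2 for Plagl1 (0.30) and Rnf17 for Elavl2 (0.069). It was Bpnt1 for Wfs1 (0.052), Gng12 for Ndst4 (0.056) and Tnip1 for Prox1 (0.029). Bok is itself on the CA3 list, which was written with earlier results of these data known, so its place here tests nothing. Distances are short for values near 0, where most genes lie, and long for Nectin3, Plagl1 and Iyd, for which no gene lay within 0.2.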

How the data were processed

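The deposited table holds 1 log ratio per spot and array, while scanner, background correction, normalization and log base are not given by the authors. Log10 was assumed from the range of the deposited values. Each deposited column had a median of 0, and scale, centring method and direction stay unknown. Exact zeros (7.39% to 22.7% of spots) were read as not measured, and the median of the remaining spots was taken off every value of that array. By the platform annotation 13738 spots had 1 gene, 52 several and 2491 none, and only the first were used for genes. Spots of a gene with a ratio were averaged to its value. All 7 member symbols matched RefSeq by Entrez identifier.

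Samples were grouped by the labelled time. The members and lists were chosen with earlier results of these data known. The slope on hours was fitted in limma 3.58.1 under R 4.3.3 (lmFit, eBayes; two-sided) over all spots with a ratio on all 4 arrays. On simulated data with 11488 spots, 36 of 100 spots changing by 1.2 log10 units between 1 and 6 h were called, 84 of 100 changing by 2.4, and 1 unchanged spot. Other genes named are the nearest gene to each member and up to 3 genes per list with the largest absolute mean. Alternatives covered log base, threshold, zeros, centring, scaling, spot summary, neighbouring spots, time covariate and each array left out.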

Additional observations from a re-analysis of the deposited data

Results flagged for a closer look

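Plagl1 spot 6707 lay past 2-fold in opposite directions at different times, at 0.49 at 2 h and -2.19 at 6 h. The difference between these times was not tested, as each has 1 array, and the other Plagl1 spot was at -0.17 at 2 h and -0.058 at 6 h.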

How the results depend on the processing

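In place of 11 negative and 3 positive member values of 2-fold or more, base-2 logs gave 4 and 0 (9.09% and 0%, against 0.454% and 0.0368% of all values), and natural logs 4 and 0 (against 1.21% and 0.711%). At 1.5-fold the counts were 21 and 6 (47.7% and 13.6%, against 15.9% and 14.9%), and at 3-fold 8 and 1 (18.2% and 2.27%, against 2.78% and 2.46%). Medians of a gene's spots gave 6 negative values of 2-fold or more among 28, and the share over all genes was not computed for medians. Without the lowest Nectin3 and Plagl1 spots, chosen after seeing the data, 5 of 36 values were negative by 2-fold or more, against 6.82% of all values. Leaving out each array in turn gave 7 to 9 negative and 2 to 3 positive values of 2-fold or more, each among 33 values. On single arrays, 4.14% to 12.8% of all spots were negative and 2.91% to 12.7% positive by that size. The slope called 0 spots in each fit on 4 arrays, and 0 to 766 with 1 array left out: 766 lacking the 4 h array, 23 lacking the 6 h array. The cause was not tested. Single slopes turned sign when an array was left out, with ranges of -0.064 to 0.16 for Iyd, -0.020 to 0.12 for Prox1, -0.032 to 0.015 for Wfs1, -0.0044 to 0.030 for Ndst4, -0.044 to 0.017 for Nectin3 spot 16093 and -0.025 to 0.014 for Nectin3 spot 9763. With the running median removed they turned for Wfs1 (0.010), Plagl1 spot 18457 (-0.020), Nectin3 spot 16093 (0.018) and Nectin3 spot 9763 (0.014). With log2 hours they turned for Nectin3 spots 16093 (0.0039) and 9763 (0.0075), and spot 9763 also turned with ordered times (0.0038) and equal scaling (0.011). With 1 array left out, slopes ranged from 0.0026 to 0.28 for Nectin3 spot 17709, -0.67 to -0.17 for Plagl1 spot 6707 and -0.24 to -0.063 for Elavl2. Member means kept their sign under every alternative run, but not their size: with 1 array left out, those of Plagl1 ranged from -0.58 to -0.15, of Prox1 from 0.051 to 0.20, of Elavl2 from -0.39 to -0.14 and of Iyd from -0.37 to -0.16. No paired analysis was possible because each time has 1 array and 1 replicate number. No intensities were used, so signal over background is unknown.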
